A study of Mus musculus with 2 samples.

Results

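The cells described here are endothelial cells of the early postnatal mouse retina that held transcripts of the proliferation genes Mki67 and Top2a but few of the late cycle genes Ube2c, Ccnb1 and Cdc20. They numbered 230 of 14047 barcodes, 55 from the control library and 175 from the Alk1 ECKO library. A barcode was kept when 500 or more genes, 1000 or more UMIs (tagged molecules) and a mitochondrial share of 1 to 10% were counted. It was called endothelial when the summed level of Pecam1, Cdh5, Cldn5, Kdr, Flt1, Egfl7, Esam and Ramp2 reached 2000 counts per 1000000 UMIs of the cell (CPM) and that of the mural genes Rgs5, Kcnj8, Pdgfrb and Higd1b stayed below 1000 CPM. Among endothelial cells, those with at least 200 CPM of Mki67 plus Top2a and less than 400 CPM of Ube2c plus Ccnb1 plus Cdc20 were taken as cycling cells before G2/M. Those that met the same minimum of Mki67 plus Top2a and held at least 400 CPM of the last 3 genes are called G2/M cells below. All endothelial cells under 200 CPM of Mki67 plus Top2a are called non-cycling, whatever their level of the last 3 genes, which were at most 529 CPM there in the control library and 1825 CPM in the other.

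The study profiled mouse retina at postnatal day 6 by single-cell RNA sequencing after enrichment with CD31 MicroBeads, which bind an endothelial surface protein. The control library carried the genotype Alk1f/f and the Alk1 ECKO library the genotype Alk1f/f Cdh5 CreERT2, so both carried the floxed Alk1 allele and only the latter the Cre recombinase driven by the endothelial gene Cdh5. ALK1 is an endothelial BMP receptor encoded by Acvrl1. The sources used here give neither the number of animals per library nor the timing of Cre induction. Each genotype had 1 library, so no difference between genotypes has a replicate check, no p-value is given, and all intervals are 95% intervals that cover counting error only.

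In a dividing cell, replication origins are licensed by loading of the MCM helicase in G1, and cyclin E and E2F factors then drive entry into S phase. During S phase the polymerases and PCNA copy DNA, ribonucleotide reductase supplies nucleotides, and the replication histones package the new strands. Late in the cycle cyclin B, the spindle kinesins and the Aurora and Polo kinases carry out mitosis. In the retina of this age the vessel plexus is still spreading, with tip cells at its front, proliferating cells behind them, and arterial cells that leave the cycle.

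The promoters of 3 replication histone genes and of the proliferation genes Mki67 and Top2a are printed first, to show which short elements each holds upstream of its start. The bases are from RefSeq, build GRCm38.p6, all read 5′ to 3′ on the minus strand, and end directly before the annotated start. Capitals mark the CCAAT box (CCAAT or, on the other strand, ATTGG), the CHR element of cell cycle genes (TTTGAA or TTCAAA), an E2F-like site (GCGGGAA or TTCCCGC) and the TATA box (TATAAA or TTTATA), searched on both strands. A match is a description of the letters, not a site shown to be used.
Hist1h1b, chr13:21780626-21780745: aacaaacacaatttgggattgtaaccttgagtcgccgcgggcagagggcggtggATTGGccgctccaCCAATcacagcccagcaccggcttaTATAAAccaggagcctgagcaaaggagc
Hist1h2ae, chr13:23571221-23571340: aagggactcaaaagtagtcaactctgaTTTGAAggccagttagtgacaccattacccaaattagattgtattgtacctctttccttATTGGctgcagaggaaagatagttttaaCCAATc
Hist1h2ap, chr13:21833476-21833595: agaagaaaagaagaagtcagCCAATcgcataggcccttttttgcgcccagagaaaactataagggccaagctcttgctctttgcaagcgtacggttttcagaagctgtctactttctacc
Mki67, chr7:135716380-135716499: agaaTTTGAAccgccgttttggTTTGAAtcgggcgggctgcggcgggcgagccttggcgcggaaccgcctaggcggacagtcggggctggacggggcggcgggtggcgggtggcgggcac
Top2a, chr11:99024190-99024309: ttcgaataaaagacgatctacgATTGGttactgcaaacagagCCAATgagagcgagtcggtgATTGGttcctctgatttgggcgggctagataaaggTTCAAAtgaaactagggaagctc

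In the bases shown, Hist1h1b held CCAAT and TATA boxes, Hist1h2ae and Top2a both CCAAT boxes and CHR letters, Hist1h2ap a CCAAT box alone and Mki67 CHR letters alone, so the histone and proliferation genes did not separate by these elements. In the full 250 bases upstream, 46 of the 57 matched replication histone promoters (80.7%) held a CCAAT box and 26 (45.6%) a TATA box, against 34.5% and 13.0% of all 27025 promoters. Of the 42 matched mitosis promoters, 30 (71.4%) held a CCAAT box and 2 (4.76%) a TATA box. The E2F-like letters were found in 5 of 20 promoters of origin licensing and firing genes (25%) and in 7 of 27 of replication fork genes (25.9%), against 3.84% of all promoters and none of the 42 mitosis promoters. The CHR letters were in 26 histone promoters (45.6%) and 10 mitosis promoters (23.8%), against 16.3% of all. The 3 histone genes named above lie on chromosome 13. In mm10, Hist1h1b spans chr13:21779883-21780625, Hist1h2ae chr13:23570517-23571220 and Hist1h2ap chr13:21833026-21833507. Mki67 spans chr7:135689784-135716361 and Top2a chr11:98992943-99024189. These spans are from GENCODE, and for Hist1h2ap and Mki67 the start differs from the RefSeq start at which the printed bases end.

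The control cells held 3868 to 167207 UMIs each (median 49241), and the Alk1 ECKO cells 1005 to 197969 (median 14555). Fewer than 5000 UMIs were found in 2 control and 54 Alk1 ECKO cells, and at that depth 200 CPM is 1 UMI. In 2 control and 31 Alk1 ECKO cells the rule was met by a single UMI of Mki67 or Top2a. The median mitochondrial share was 4.02% in control and 2.36% in Alk1 ECKO cells. The libraries shared 20 barcodes, none of them in this class. Some results below leave out the shallow cells, by thinning or by a minimum of 5000 UMIs. The label check and the counts of cells that hold a gene or pass a mark include them unless stated.

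The class made up 16.6% of control endothelial cells (55 of 331, 12.8 to 21.1) and 14.5% of Alk1 ECKO endothelial cells (175 of 1205, 12.6 to 16.6). These intervals overlapped. With no mitochondrial minimum the endothelial barcodes numbered 336 in control and 2462 in Alk1 ECKO, so the minimum removed far more of them in Alk1 ECKO. The shares were then 16.7% (56 of 336, 12.8 to 21.1) and 9.10% (224 of 2462, 7.99 to 10.3), whose intervals did not overlap. Cycling cells of both stages together made up 28.7% (23.9 to 33.9) and 30.2% (27.6 to 32.9). The cells before G2/M were 57.9% of all cycling endothelial cells in control (47.3 to 68.0) and 48.1% in Alk1 ECKO (42.8 to 53.3). After every cell was thinned to 5000 UMIs, the class held 19.4% of 310 control and 18.2% of 947 Alk1 ECKO endothelial cells. Of the cells deep enough to be thinned, 35 of 53 in control and 85 of 121 in Alk1 ECKO met the rule again, and 19 and 69 cells entered it from the non-cycling class.

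The label was checked against transcripts that the rule did not name. The summed level of 62 replication histone genes per cell ranged from 311 to 24617 CPM in control (median 2357) and from 0 to 26591 CPM in Alk1 ECKO cells (median 1558). The medians of non-cycling cells were 722 and 388 CPM. The 90th percentile of non-cycling cells was passed by 40 of 55 control cells (72.7%) and 101 of 175 Alk1 ECKO cells (57.7%). The summed origin, fork and nucleotide genes passed that mark in 43 control (78.2%) and 93 Alk1 ECKO cells (53.1%). In 4 control and 55 Alk1 ECKO cells neither sum did. A mitosis sum above the lower quartile of G2/M cells was found in 7 control and 24 Alk1 ECKO cells. This mark goes with the later stage, not with the label. By the replication marks the label thus matched most control cells, while 55 of 175 Alk1 ECKO cells and 4 of 55 control cells passed neither. None of the 3 marks was passed by 51 Alk1 ECKO and 3 control cells, which are members by Mki67 and Top2a alone.

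**Figure D1:**
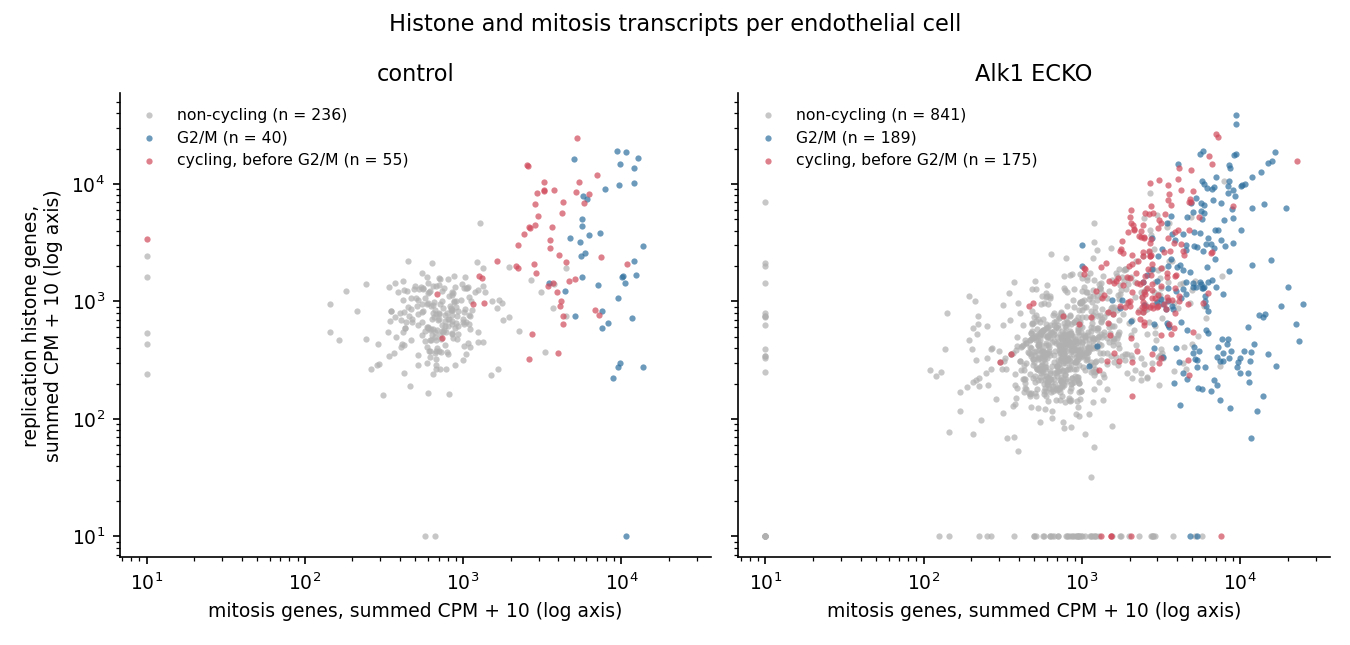
Each point is an endothelial cell, with the summed CPM of 50 mitosis genes on the x axis and of 62 replication histone genes on the y axis (log axes, 10 CPM added), by class, in the control and the Alk1 ECKO library. Most cells before G2/M lie to the right of the non-cycling cells and overlap with the G2/M cells on the histone axis, while the mitosis sums of the G2/M cells are mostly higher.

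The edges of the rule were not sharp. Cells just inside the lower edge, at 200 to 250 CPM of Mki67 plus Top2a, had median histone sums of 997 CPM (3 control cells) and 1050 CPM (27 Alk1 ECKO cells). Just outside, at 150 to 200 CPM, the medians were 589 CPM (2 cells) and 800 CPM (27 cells). On the late edge, cells at 300 to 400 CPM of Ube2c, Ccnb1 and Cdc20 had median mitosis sums of 5404 and 3874 CPM, and cells at 400 to 500 CPM had 5655 and 4450 CPM.

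Markers of other cell types were low in the summed cells. In control and Alk1 ECKO cells rod markers summed to 133 and 17.8 CPM, glial and progenitor markers to 239 and 123 CPM, with Sox2 at 0 in both, and neuron markers to 148 and 79.5 CPM, with Elavl4, Gad1 and Tfap2b at 0 in both. Mural markers summed to 4.48 and 93.0 CPM, with 7 of 10 at 0 in control, and microglial markers to 0.639 and 15.9 CPM, with 8 of 10 at 0 in control. Erythroid markers summed to 691 CPM in control, where 1 cell held 27187 CPM, and to 3.58 CPM in Alk1 ECKO. At least 5000 CPM of rod, glial, neuron, microglial or erythroid markers was held by 3 control cells and 1 Alk1 ECKO cell. Without them the medians of the tip cell and arterial lists between genotypes, given below, were 1.2 and 0.50. The endothelial markers summed to 6884 and 6171 CPM in these cells and to 9723 and 7558 CPM in non-cycling cells. The endothelial genes of the rule also reached 2236 CPM in the barcodes of the Alk1 ECKO library called non-endothelial, against 208 CPM in control.

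The comparison with non-cycling endothelial cells describes what the class holds beyond the genes that chose it. Because Mki67 and Top2a were counted in the same cells, these ratios are a description. Ratios are log2 ratios of the CPM of UMIs summed over the cells of a class, within a library, set relative to the median of all genes with at least 50 UMIs in the pair of classes. A gene counted as higher or lower when it was at least 1.5-fold from that median in both libraries. Of 9528 genes so measured, 527 were higher (5.53%) and 165 lower (1.73%). Mki67, a nuclear antigen of proliferating cells, was at 325 CPM in control cells and 178 CPM in Alk1 ECKO cells of the class, against 21.2 and 20.4 CPM in non-cycling cells. Top2a, the topoisomerase that untangles replicated DNA, was at 339 and 236 CPM against 11.2 and 21.8 CPM.

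Genes of origin licensing and firing were higher in 18 of 22 measured, with median ratios of 2.00 in control and 1.53 in Alk1 ECKO. Mcm5, a subunit of the MCM helicase, was at 73.8 and 55.4 CPM against 14.5 and 18.4 CPM in non-cycling cells. Mcm3, another subunit of the helicase, had ratios of 2.06 and 1.37, and Mcm6 of 1.17 and 0.88. Cdc6, which loads the helicase, stood at 2.96 and 2.32, and Cdc45, which activates it, at 3.79 and 2.09. The origin recognition genes Orc3, Orc4 and Orc5 lay within 1.5-fold of the median in both libraries, with Orc4 at -0.14 and 0.23.

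Replication fork genes were higher in 30 of 32, with medians of 2.05 and 1.55. Pcna, the sliding clamp of the polymerases, was at 183 and 175 CPM, against 53.8 and 65.4 CPM in non-cycling cells. Clspn, a fork-stabilising mediator of the checkpoint kinase CHK1, had ratios of 3.41 and 2.55. Asf1b, a histone chaperone at the fork, had ratios of 3.96 and 2.66. The exceptions were Pola2 and Rpa3, which passed 1.5-fold only in control. Nucleotide supply genes were higher in 12 of 14, with medians of 1.68 and 1.34. Rrm2, the S-phase subunit of ribonucleotide reductase, was at 101 CPM in both libraries against 5.79 and 12.9 CPM. Its relative Rrm2b, which is induced by p53, was not higher, at ratios of -0.39 and -0.32.

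Replication histone genes were higher in 25 of 29, with medians of 2.68 and 2.56. The linker histone gene Hist1h1b was at 1221 CPM (1183 to 1261) in the control cells and at 756 CPM (736 to 777) in the Alk1 ECKO cells, against 11.6 and 46.1 CPM in non-cycling cells. Hist1h2ae was at 350 and 321 CPM against 12.5 and 27.8 CPM, and Hist1h2ap at 404 and 626 CPM against 8.33 and 69.5 CPM. Hist1h2ab reached ratios of 5.91 and 4.12 and Hist1h3c of 4.88 and 4.09, from 0.724 and 1.93 CPM of Hist1h2ab in non-cycling cells. Counts of single core histone genes are uncertain, because the coding sequence of Hist1h2ap (393 bases) was 96.9 to 100% identical to that of 10 other H2A genes of the cluster, 98.5% identical to Hist1h2ae and the same as 1 of them. Most replication histone transcripts lack a poly(A) tail, while the kit captures RNA through poly(A), so these levels count only the captured part. The factors that process and carry histones were higher in 11 of 14, among them Slbp, which binds the histone stem-loop, at 105 and 101 CPM against 39.7 and 49.3 CPM.

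Cyclins and their kinases were higher in 8 of 14, with medians of 1.46 and 0.96. Ccne1 and Ccne2, the E cyclins of S-phase entry, had ratios of 3.59 and 2.26 and of 3.07 and 2.18. Ccna2, the cyclin of S and G2 phase, had ratios of 3.90 and 2.50. Ccnd1, the D cyclin of mitogen response, lay within 1.5-fold, at 302 and 455 CPM against 218 and 352 CPM. E2F and RB family genes were higher in 11 of 17. E2f1, an activator of S-phase genes, had ratios of 2.29 and 1.55, and E2f8, a late repressor of them, of 3.51 and 3.30.

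Mitosis genes were also higher than in non-cycling cells, in 46 of 49 with medians of 3.45 and 2.18. The spindle kinesin gene Kif11 was at 58.2 and 41.8 CPM against 0.724 and 3.13 CPM. Prc1, which bundles the central spindle, was at 119 and 108 CPM against 2.72 and 12.2 CPM. Esco2, which establishes cohesion during S phase, was at 39.3 CPM in control against a single UMI in non-cycling control cells, a ratio of 7.81 (5.30 to 13.12), and had a ratio of 3.52 in Alk1 ECKO. The median ratios of the lists above were larger in control. After thinning, where 9 genes of each list were measured, the mitosis medians were 2.02 and 1.19, while the histone medians were 1.2 and 1.89 and so stood in the other order. The non-cycling Alk1 ECKO cells held more late transcripts, such as Ube2c at 42.4 CPM against 5.61 CPM in control. Of those non-cycling cells, 180 of 841 had fewer than 5000 UMIs, against 16 of 236 in control.

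Genes lower in this class than in non-cycling cells included some of differentiated endothelium. Of the barrier and transport genes 5 of 25 were lower in both libraries, with medians of -0.58 and -0.35, and of the arterial genes 4 of 17, with medians of -1.10 and -0.36. With each cell weighted equally in place of each UMI, 2 barrier genes and 1 arterial gene were lower, and the barrier median in Alk1 ECKO was -0.038. Glial and progenitor markers were lower in 4 of 7 and rod markers in 2 of 5, and their part in the other genes was not tested. Of the 15 lower genes past the naming rule, 10 were at least as high in non-endothelial cells and are not named. Spock2, an extracellular proteoglycan gene of barrier endothelium, was at 278 and 86.9 CPM against 964 and 195 CPM in non-cycling cells. Its ratio in Alk1 ECKO was 0.24 with cells weighted equally and -0.39 after thinning. Itm2a, a membrane protein gene of the same cells, was at 356 and 349 CPM against 954 and 604 CPM. Egfl8, a secreted EGF-like protein gene, had ratios of -2.13 and -1.05, the latter -0.52 with cells weighted equally, and the peptide hormone gene Grp of -1.79 and -1.19. Apod, an apolipoprotein gene, had ratios of -1.95 and -0.86. Gja4, the arterial connexin 37 gene, was at 20.1 and 82.5 CPM against 257 and 236 CPM. With cells weighted equally its ratio was -2.10 in control and -0.054 in Alk1 ECKO. The arterial median in Alk1 ECKO was 0.62 with cells weighted equally and 0.22 after thinning, so its direction there depended on the weighting of cells.

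Inhibitors of the cycle showed no shared direction. Of 11 measured, 2 were higher and 1 lower. Cdkn1c, the p57 gene of arrested cells, was at 16.6 and 25.5 CPM against 62.3 and 56.3 CPM in non-cycling cells, and its ratio in Alk1 ECKO was -0.48 with cells weighted equally. Cdkn1b, the p27 gene, had ratios of -0.14 and -0.18. Cdkn2c, the p18 inhibitor of CDK4 and CDK6, had ratios of 1.57 and 1.73.

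**Figure D2:**
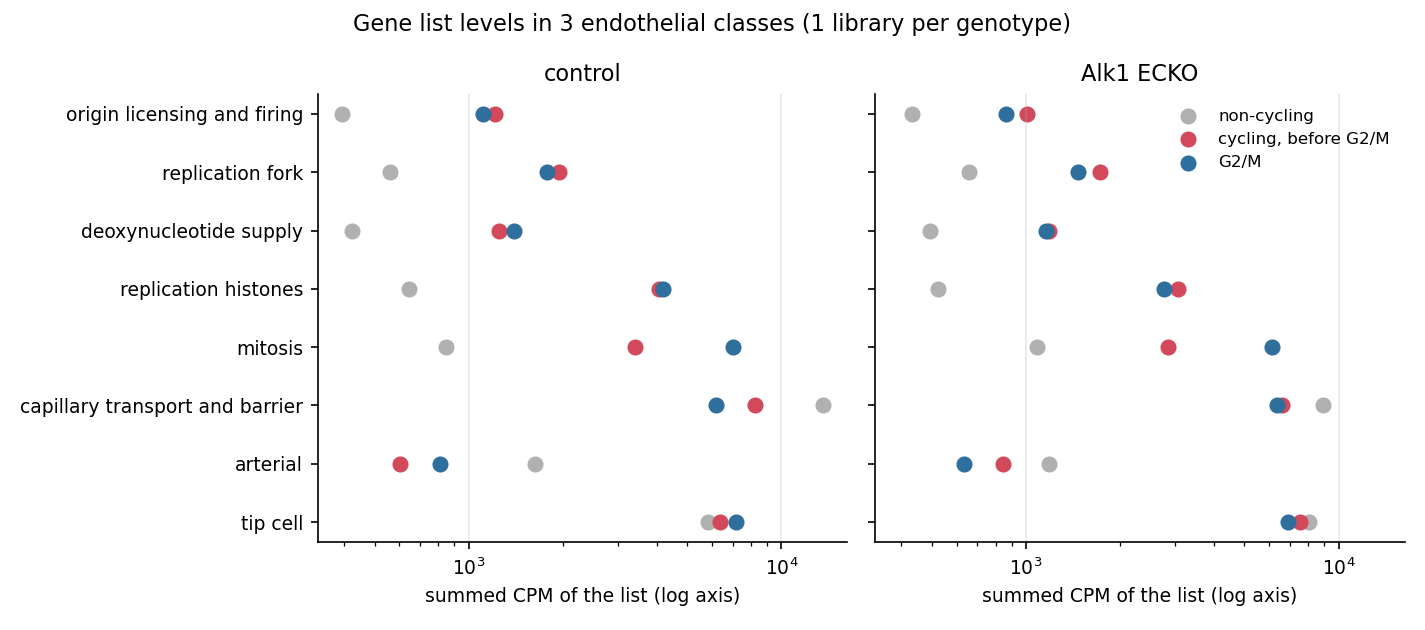
Each point is the summed CPM of a gene list (log axis) in the non-cycling, before G2/M and G2/M endothelial cells of the control and the Alk1 ECKO library, with no error bars because the 1 library per genotype has no replicates. The replication lists lie close together in both cycling classes and above the non-cycling cells, while the mitosis list separates the cells before G2/M (3406 and 2845 CPM) from the G2/M cells (6982 and 6121 CPM).

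Cells within the class differed widely in histone level. The cells with at least 5000 UMIs were put in 3 groups of near equal size by their histone sum, which had medians of 952, 2407 and 8731 CPM among control cells and 663, 1902 and 5613 CPM among Alk1 ECKO cells. Replication fork genes had medians of 1562, 1339 and 3439 CPM in these groups in control and of 979, 1684 and 2329 CPM in Alk1 ECKO. Licensing genes had medians of 958, 816 and 1914 CPM and of 545, 955 and 1319 CPM. The mitosis sum was 3950, 2816 and 3762 CPM and 2373, 2558 and 3246 CPM. The upper histone group thus had the highest replication levels in both libraries, while the control mitosis sum was highest in the lower histone group. The median depth of the groups was 29868, 70523.5 and 51374 UMIs in control and 13955, 68818.5 and 48718.5 UMIs in Alk1 ECKO.

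Rrm2 and Ccne1 were highest in the upper histone group in both libraries, while in control their lower and middle groups lay close together. Rrm2 was at 51.6, 49.9 and 208 CPM over the lower, middle and upper histone groups in control and at 41.9, 83.2 and 162 CPM in Alk1 ECKO. Ccne1 was at 14.7, 15.5 and 46.6 CPM and at 10.3, 22.6 and 32.4 CPM. Ccnd2, a D cyclin of G1, was at 52.7, 79.1 and 13.9 CPM and at 82.5, 24.6 and 20.6 CPM, lowest in the upper group in both libraries and highest in the middle group of control and the lower group of Alk1 ECKO. Spock2 was at 152, 575 and 56.5 CPM in control and at 164, 51.3 and 54.3 CPM in Alk1 ECKO, so its highest group differed between the libraries.

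Correlations were taken within each library across single cells of at least 5000 UMIs, on CPM that was not thinned, so the cells share a library but differ in depth. The licensing and fork sums had a Spearman correlation of 0.94 over 53 control cells and 0.88 over 121 Alk1 ECKO cells. The histone sum correlated with the fork sum at 0.62 and 0.59 and with the licensing sum at 0.50 and 0.54. With the mitosis sum it correlated at 0.09 in control and 0.41 in Alk1 ECKO. The endothelial sum correlated with the licensing sum at -0.63 and -0.46.

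**Figure D3:**
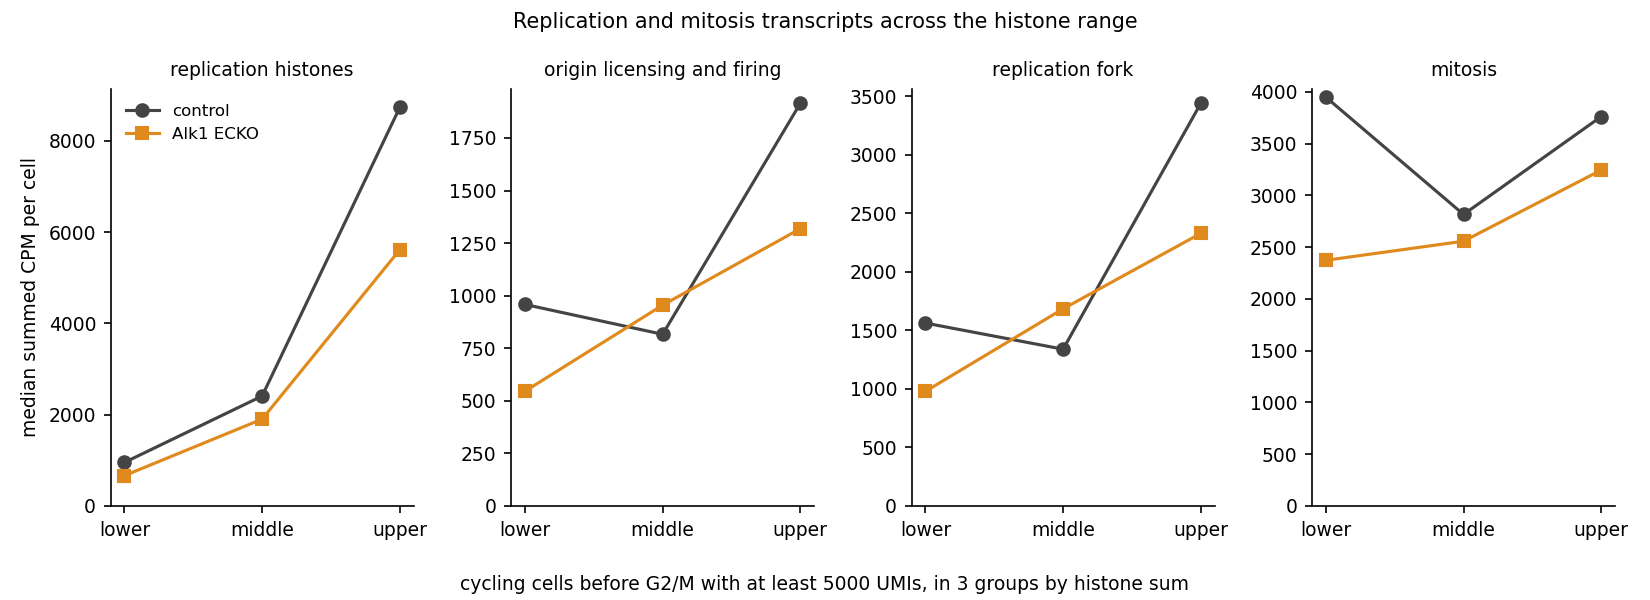
Median summed CPM per cell of 4 gene lists (y axes) in the lower, middle and upper histone groups of cells before G2/M with at least 5000 UMIs, joined by lines for the control (18, 18 and 17 cells) and the Alk1 ECKO library (41, 40 and 40 cells). Histone, licensing and fork medians are highest in the upper group in both libraries, and the control mitosis median is highest in the lower group at 3950 CPM.

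Against the G2/M endothelial cells, which the rule separated by Ube2c, Ccnb1 and Cdc20, few genes differed, and most mitosis genes were among them. Of 8309 genes, 115 were lower in the cells before G2/M in both libraries (1.38%) and 30 higher (0.361%). Mitosis genes were lower in 46 of 50, with medians of -0.99 in control and -1.11 in Alk1 ECKO. The chosen gene Ube2c, an enzyme of the anaphase-promoting complex, was at 97.8 and 138 CPM against 507 and 628 CPM. Aurka, the Aurora A kinase of the spindle poles, was at 15.3 and 14.0 CPM against 66.4 and 53.9 CPM. Plk1, the Polo kinase of mitotic entry, had ratios of -1.78 and -1.60, and Cenpf, a kinetochore protein gene, of -1.41 and -1.76. Cdk1, the kinase that pairs with cyclin B, was at 136 and 168 CPM against 317 and 344 CPM.

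Replication transcripts did not part the stages in the same way. None of 32 measured replication histone genes was higher and 1 lower, with medians of -0.15 and 0.07, and Hist1h1b had ratios of 0.15 and 0.20. With cells weighted equally 8 of the 32 were lower, with medians of -0.45 and -0.41. None of 23 licensing genes was higher and 1 was lower, Dbf4, the regulator of the origin-firing kinase CDC7, at -0.78 and -0.93. A histone sum above the 90th percentile of non-cycling cells was found in 70.0% of control and 54.5% of Alk1 ECKO G2/M cells, near the 72.7% and 57.7% of the cells before G2/M. Of 17 cyclins and kinases, 3 were higher before G2/M and 7 lower, with medians of -0.22 and -0.12. The higher ones were Ccnd2, Ccne1 and Ccne2. Ccnd2 was at 49.9 and 42.5 CPM against 22.9 and 18.5 CPM, Ccne1 at 25.3 and 22.6 CPM against 16.2 and 13.6 CPM, and Ccne2 at 31.0 and 20.6 CPM against 14.8 and 11.3 CPM. E2f1 had ratios of 0.61 and 0.47. The D cyclin genes Ccnd1 and Ccnd3 lay within 1.5-fold, and Ccna2 was lower, at -0.87 and -1.0.

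Set beside the cycling non-endothelial cells before G2/M of the control library, taken by the same cycle rule (182 cells), the histone transcripts of the endothelial cells were lower. Of 8727 genes measured, 2471 were at least 1.5-fold higher (28.3%) and 2343 lower (26.8%), and 33 of 36 replication histone genes were lower, with a median of -1.36. The histone list summed to 4059 CPM in the endothelial and 10680 CPM in the non-endothelial cells. The median depths were 49241 and 4954 UMIs, and the part of depth in this difference was not tested. In Alk1 ECKO the list summed to 3062 CPM in the endothelial and 3725 CPM in the 69 non-endothelial cells, with median depths of 14555 and 17102 UMIs. These 69 cells differed in markers from the 182 of control, so the gaps in the 2 libraries are not alike. The 69 cells held 3805 CPM of the endothelial genes of the rule and 3940 CPM of mural markers, against 345 and 334 CPM in the 182. Glial and progenitor markers were at 1046 CPM against 5333 CPM.

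The comparison of Alk1 ECKO with control within these cells concerns genotype, which the rule did not use. Ratios are again relative to the median of all genes measured, which lay at -0.18 before centring, and n is 1 library on each side. Of 9511 genes, 862 were at least 1.5-fold higher in Alk1 ECKO (9.06%) and 952 lower (10.0%). Without centring the counts were 488 (5.13%) and 1723 (18.1%), so the split between directions depends on the scaling. The same ratio was computed in non-cycling cells, where 12.9% of 11276 genes were higher and 13.8% lower, and in G2/M cells, where 9.99% of 9736 were higher and 8.84% lower. In barcodes called non-endothelial, 32.2% of 14529 genes were higher and 29.1% lower. There 20 of 20 tip cell genes were higher (median 5.03). Of the arterial genes 13 of 17 were higher and 1 lower (2.48), and of SMAD1/5 targets 13 of 16 and 1 (1.74). Those barcodes held 2236 CPM of the endothelial genes of the rule in Alk1 ECKO and 208 CPM in control, and the median of these genes was 5.17. All these ratios use the same libraries and are set side by side without a test.

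Acvrl1, the targeted gene, was at 91.7 and 101 CPM in control and Alk1 ECKO cells, a ratio of 0.31 (0.11 to 0.51). The counted reads come from the 3′ end, which need not lie in the deleted part, so this level checks nothing about the deletion. Piezo1, a mechanosensitive ion channel gene, was at 76.4 and 48.1 CPM, a ratio of -0.49 (-0.74 to -0.25), against -0.10 in non-cycling and -0.15 in G2/M cells. Piezo2, the other channel of the family, was at 131 and 124 CPM, and its ratio was -0.66 with cells weighted equally.

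Cell cycle lists had medians between -0.35 and 0.14, nearer to 0 than that of the tip cell list (1.25). Mki67 had a ratio of -0.70 (-0.82 to -0.58), or -0.28 with cells weighted equally, and Top2a of -0.34. Ube2c, also a gene of the class rule, had a ratio of 0.67 (0.48 to 0.86), or 0.27 with cells weighted equally and 0.19 after thinning. Fork genes had a median of 0.02 with none of 32 higher and 3 lower, and nucleotide supply genes a median of 0.03 with none of 14 past 1.5-fold in either direction. Pcna had a ratio of 0.11 and Mcm5 of -0.24. Licensing genes were lower in 4 of 24, namely Ticrr at -1.11, Dtl at -0.88, Cdc7 at -0.85 and Mcm10 at -0.67, and none was higher. Mitosis genes were lower in 11 of 50 and higher in 1, with a median of -0.22. Among the lower ones were Dlgap5, a spindle microtubule gene, at -1.04 and Aspm, a spindle pole gene, at -1.03, or -0.32 with cells weighted equally. The higher one was Cenpw, a centromere protein gene, at 0.65, or -0.34 after thinning.

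Replication histone genes were lower in 9 of 36 and higher in 2, with a median of -0.35. Hist1h1b had a ratio of -0.52 (-0.58 to -0.46), and the linker histone genes Hist1h1e and Hist1h1d of -0.65 and -0.89. Hist1h2ap was higher, at 0.81 (0.72 to 0.90), or 0.39 with cells weighted equally, against 3.27 in non-cycling and 0.43 in G2/M cells, while its close copy Hist1h2ae was at 0.05. Hist1h4i was also higher, at 0.78, but at -0.0031 with cells weighted equally. Because these copies are nearly identical, the split of reads among them is uncertain.

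The brake Cdkn1a, the p21 gene, was at 67.8 and 156 CPM, a ratio of 1.38 (1.17 to 1.60). It was at 1.54 in non-cycling and 1.24 in G2/M cells. Of 12 genes of the list of CDK inhibitors and arrest genes 4 were higher and none lower, the others being Cdkn2b at 1.26, Cdkn1c at 0.79 and Ccng1 at 0.62. The list median of 0.14 was -0.037 without centring and -0.054 after thinning. Ccnd1 was higher at 0.77 (0.66 to 0.87), or 0.35 with cells weighted equally and 0.49 after thinning.

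Tip cell genes were higher in 13 of 19 and lower in none, with a median of 1.25, against 1.57 in non-cycling cells and 0.41 in G2/M cells. Esm1, a secreted proteoglycan gene of tip cells, was at 34.5 and 148 CPM, a ratio of 2.27 (1.99 to 2.57). Kcne3, a potassium channel subunit gene of the sprouting front, was at 37.4 and 162 CPM, and Apln, the ligand gene of the apelin receptor, at 203 and 479 CPM. Angpt2, the TIE2 ligand gene of remodelling vessels, was at 18.2 and 82.4 CPM, with a ratio of 2.35. Adm, the adrenomedullin gene, had a ratio of 2.25 and Cxcr4, a chemokine receptor gene of tip cells, of 1.74. In G2/M cells Esm1 was at 0.71 and Kcne3 at 0.50, lower than in the cells before G2/M, and this difference was not tested. After thinning, Esm1 UMIs were found in 7.55% of the control cells and 30.6% of the Alk1 ECKO cells, against 0.224% and 0% of rods, which should lack it. Rods had median depths of 2899 and 2356 UMIs before thinning.

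Arterial genes were higher in 8 of 17 and lower in none, with a median of 0.56, while in non-cycling cells 1 was higher and 8 of 19 lower, with a median of -0.43. In G2/M cells 2 were higher and 4 lower, with a median of -0.32. Before G2/M, Gja4 was at 20.1 and 82.5 CPM, a ratio of 2.21 (1.83 to 2.61), against 0.08 in non-cycling and -0.54 in G2/M cells. Its UMIs lay in 15 of 55 control and 100 of 175 Alk1 ECKO cells, and without the cell that held most of them the levels were 13.8 and 77.1 CPM. After thinning, 5.66% of the control cells and 29.8% of the Alk1 ECKO cells before G2/M had a Gja4 UMI, against 30.0% and 35.4% of non-cycling cells and 0.448% and 1.64% of rods. The control cells before G2/M thus stood low, and the other 3 groups close together, on this share.

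Cxcl12, a chemokine gene of arterial cells, was at 3.52 and 14.6 CPM, a ratio of 2.23 (1.33 to 3.28), against -0.997 in non-cycling cells. Bmx, an arterial tyrosine kinase gene, was at 4.16 and 11.9 CPM, a ratio of 1.69, against -1.08. Of its 13 UMIs in control 9 came from 1 cell, without which its level was 1.28 CPM. Hey1, a Notch and BMP target, was at 9.27 and 19.8 CPM with a ratio of 1.27 (0.68 to 1.90), and Sema3g, an arterial semaphorin gene, at 19.8 and 32.9 CPM with a ratio of 0.91 (0.50 to 1.34). Stmn2, a microtubule gene that neurons express as well and that is also in the neuron list, was at 11.5 and 25.9 CPM. Mgp, a matrix protein gene of mature vessels, was at 6.39 and 94.0 CPM, and 16 of its 20 control UMIs came from 1 cell.

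The 6 arterial genes Gja4, Gja5, Cxcl12, Bmx, Sema3g and Hey1 together had 178 UMIs in 36 of 55 control cells and 1141 UMIs in 142 of 175 Alk1 ECKO cells. The 3 cells with most of them held 42.7% of these UMIs in control and 14.7% in Alk1 ECKO. At least 1000 CPM of the 6 genes was found in 3.64% of the control cells and 28.6% of the Alk1 ECKO cells before G2/M, against 17.4% and 18.8% of non-cycling cells. A shallow cell passes this mark with few UMIs, and fewer than 5000 UMIs were found in 2 of 55 control and 54 of 175 Alk1 ECKO cells. The part of depth in these shares was not tested. In the summed UMIs the 6 genes were at 56.9 and 163 CPM before G2/M, and their medians per cell were 29.9 and 115 CPM. In control G2/M cells 3 cells held 79.6% of these UMIs. In these 40 cells Gja4 was at 142 CPM, and at 84.9 CPM without the cell that held most of it.

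**Figure D4:**
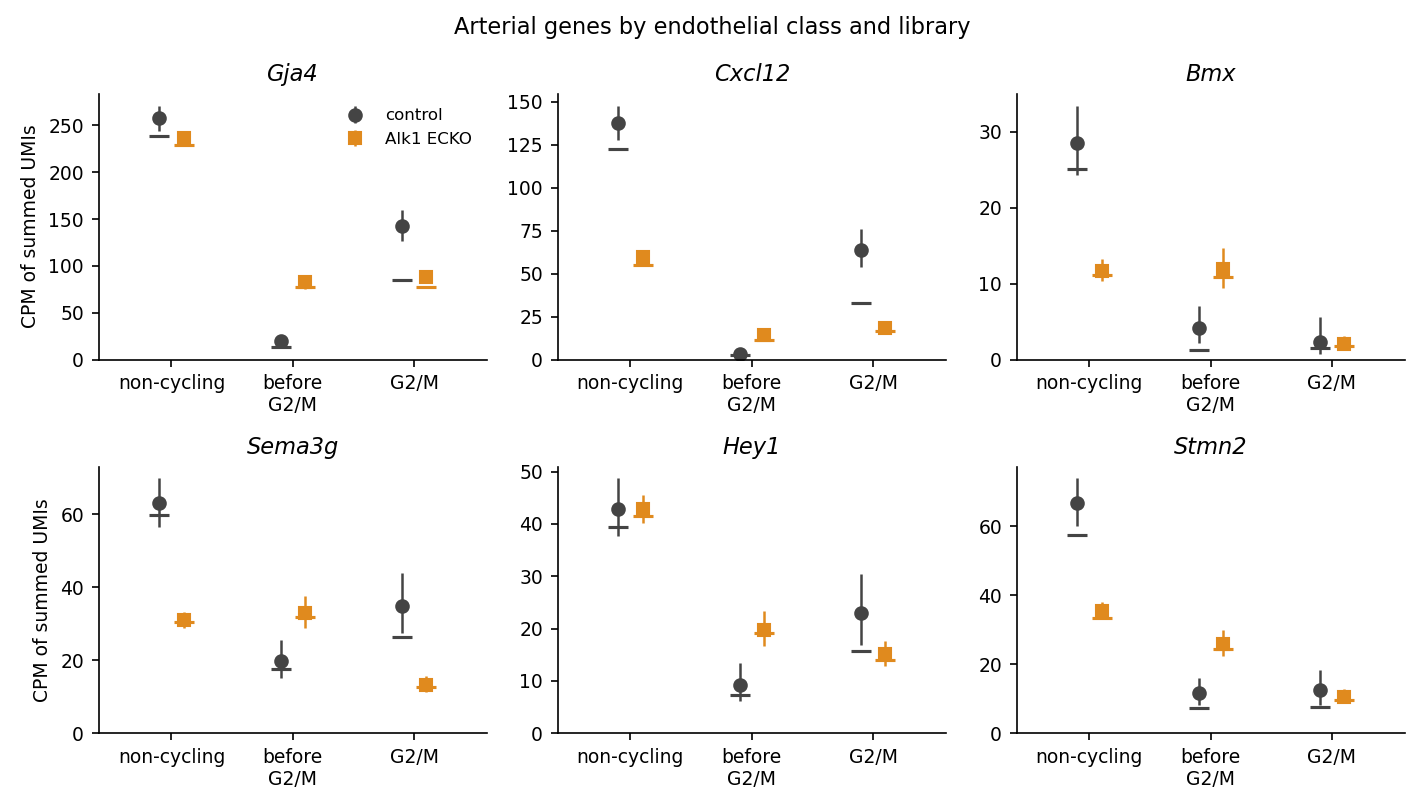
CPM of summed UMIs (y axes, linear, from 0) of 6 arterial genes in non-cycling, before G2/M and G2/M endothelial cells of the control and the Alk1 ECKO library, with bars for 95% Poisson intervals and a dash for the level without the cell that held most UMIs. In the cells before G2/M the Alk1 ECKO value lies above the control value for all 6 genes. In non-cycling cells the control value is higher for Cxcl12, Bmx, Sema3g and Stmn2, and slightly higher for Gja4.

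Targets of SMAD1 and SMAD5, the transcription factors downstream of ALK1, were mostly higher in the cells before G2/M. Of 11 measured, 7 were higher and 1 lower, with a median of 0.88. The median was 0.33 after thinning, with 3 of 7 higher, 0.57 with at least 20 CPM in 1 group and 1.84 with cells weighted equally. In non-cycling cells 2 of 14 were higher and 3 lower, with a median of 0.0043. In G2/M cells 3 of 11 were higher and 3 lower, with a median of -0.21. As listed, these targets share Gja4, Gja5, Hey1, Hey2 and Sema3g with the arterial list and Pdgfb with the tip cell list. The results of these lists are therefore not independent. Id3, an inhibitor of bHLH factors that BMP signalling induces, was lower, at 616 and 320 CPM, a ratio of -0.77 (-0.86 to -0.68), against -0.88 and -0.76 in the other classes. Id1, its close relative, was at 170 and 212 CPM, a ratio of 0.49. Smad6, the inhibitory SMAD gene, was at 5.11 and 12.3 CPM. Tmem100, a BMP-induced membrane protein gene, had 3 UMIs in control (0.959 CPM) and 11.3 CPM in Alk1 ECKO, a ratio of 3.74 (2.14 to 6.04).

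The 7 genes of a list led by Apod, which had been chosen on these libraries in earlier work and so is not independent evidence of their direction, were all higher, with a median of 2.71. All 7 were also higher in non-cycling cells (median 2.43) and in G2/M cells (median 2.33). Rasgrp2, which switches on the GTPase RAP1, was at 21.4 and 124 CPM, a ratio of 2.71 (2.35 to 3.09). Rarres1, a retinoid-responsive gene, was at 9.27 and 49.8 CPM, and Mall, a raft-associated membrane protein gene, at 2.24 and 26.8 CPM. Apod was at 25.3 and 107 CPM and Prss23, a serine protease gene, at 21.1 and 94.0 CPM.

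The gene with the highest ratio by the naming rule was Dkk2, a secreted modulator of WNT signalling, at 4.68 (3.11 to 6.97) from 3 UMIs in control and 152 in Alk1 ECKO. It was at -0.57 in non-cycling cells. Its UMIs lay in 2 control and 58 Alk1 ECKO cells of the class. Igtp, an interferon-induced GTPase gene, was at 2.88 and 24.8 CPM. Per cell, the summed level of MHC class II genes had a 90th percentile of 995 CPM among the Alk1 ECKO cells of the class. The highest such cell reached 3396 CPM, while 106 of these 175 cells held no UMI of the list. The median was 364 CPM in those under 5000 UMIs, where 1 UMI is at least 200 CPM. It was 326 CPM in those of 5000 to 20000 UMIs, and 0 in those of 20000 to 50000 and in deeper ones. With the UMIs of the 175 cells pooled, the list reached only 38.5 CPM. The part of depth in the percentile was not tested. Fbln2, an extracellular matrix gene, was at 5.75 and 24.6 CPM, a ratio of 2.27 against -0.15 in non-cycling cells.

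**Figure D5:**
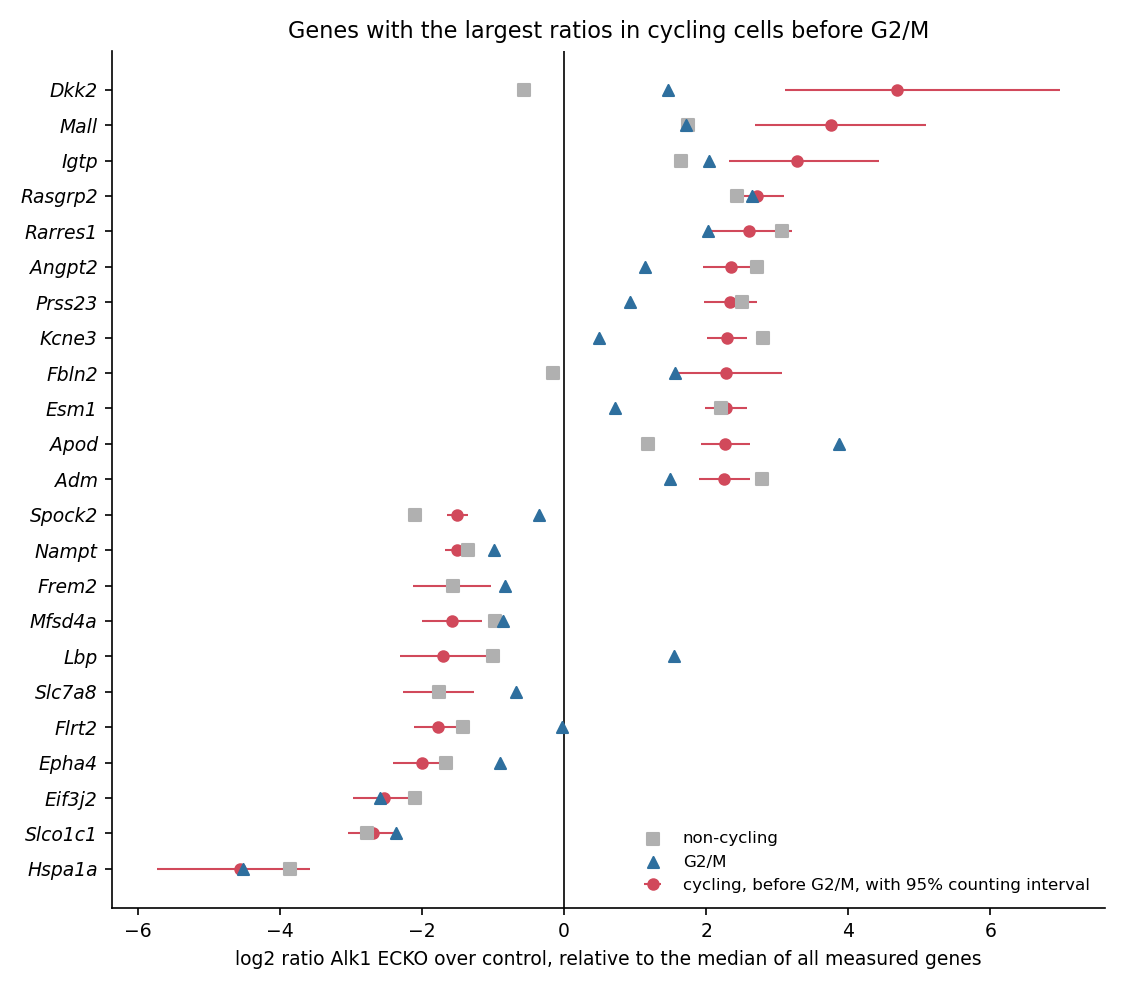
Points are centred log2 ratios of Alk1 ECKO over control (x axis) for the highest and lowest genes in cells before G2/M by the naming rule. Bars are 95% counting intervals, and squares and triangles give the ratio in non-cycling and G2/M cells. Dkk2 and Fbln2 lie below 0 in non-cycling cells, and Lbp lies above 0 in G2/M cells.

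Barrier and transport genes were lower in 12 of 26 and higher in 3, with a median of -0.39, against -0.74 in non-cycling cells and -0.25 in G2/M cells. With cells weighted equally the median was 0.10, and without the cells under 5000 UMIs it was -0.44. The 54 shallow Alk1 ECKO cells had a median barrier sum of 11821 CPM, against 5414 CPM in the 57 cells of at least 50000 UMIs. Slco1c1, a thyroid hormone and organic anion transporter gene, was at 91.4 and 12.6 CPM, a ratio of -2.68 (-3.04 to -2.33). Slc7a1, a cationic amino acid transporter gene, was at 602 and 255 CPM. Spock2 had a ratio of -1.50, Slc7a8, an amino acid exchanger gene, of -1.76 and Mfsd2a, a lipid transporter gene of the blood-brain and blood-retina barriers, of -0.79. With cells weighted equally these were 0.32, 0.41 and 0.037. Rgcc, a regulator of cyclin-dependent kinases, went the other way, at 283 and 489 CPM with a ratio of 0.96, or 0.44 with cells weighted equally and 0.54 after thinning.

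Of the WNT and norrin response genes 5 of 17 were lower and none higher, with a median of -0.39. Apcdd1, a membrane inhibitor of WNT that norrin signalling induces in the retina, was at 217 and 88.1 CPM, a ratio of -1.13, or -0.11 with cells weighted equally. Axin2, a feedback inhibitor of WNT signalling, had a ratio of -0.69, and of 1.33 with cells weighted equally. Venous genes were lower in 6 of 12 and higher in 1, with a median of -0.51. After thinning 2 of 8 were lower and the median was -0.055. Nr2f2, the venous fate factor COUP-TFII, was at 94.0 and 38.7 CPM, a ratio of -1.11 (-1.35 to -0.86), and Emcn, an endomucin gene of veins and capillaries, was the higher one at 0.73, or 0.17 with cells weighted equally and 0.41 after thinning. Among the other genes named as lowest, Epha4, an ephrin receptor gene, was at 51.8 and 11.5 CPM, a ratio of -2.0, or -0.24 with cells weighted equally, and Nampt, an NAD synthesis gene, at 260 and 80.8 CPM. Lbp, the lipopolysaccharide-binding protein gene, had a ratio of -1.70 here and 1.55 in G2/M cells.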

How the data were processed

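Per the labels' protocols, retinal cells enriched with CD31 MicroBeads were run on the 10x Genomics 3′ kit version 3.1. The authors deposited raw UMI counts per gene and barcode (32285 genes), and per the file headers Cell Ranger 5.0.1 wrote them. The submitters' processing notes list FastQC 0.11.9, Cell Ranger 6.1.1 and the build mm10. Neither intron counting nor the barcode filter is stated in the sources used here. Depth was 54800465 UMIs over 8739 control barcodes and 62728605 over 5308 Alk1 ECKO barcodes, of which 7583 and 2764 passed the filters. The files hold no clusters, so classes were cut by the rule given in the report.

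UMI counts of a class were added up per library and divided by the class total. Sums have exact Poisson intervals, shares Clopper-Pearson intervals and ratios exact binomial intervals conditional on the total, all at 95% (scipy 1.17.1, numpy 2.4.6), and counting error alone is covered. UMIs of free RNA from other cells are included. The ratio code was tested on simulated counts. Doublets were scored with Scrublet in scanpy 1.11.5. Its automatic threshold called 2 of 7909 control and 11 of 4237 Alk1 ECKO cells, so doublets were kept in the values and removed as an alternative (the 500 and 144 highest scores, 2 and 11 of them in the class).

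Genes were named by a rule. It took the genes of the class rule, Acvrl1 and Piezo1, the 12 highest and 12 lowest of each comparison with at least 20 CPM in 1 group and an interval beyond 1.5-fold, and from each list those with the highest level and the highest and lowest ratios, leaving out predicted, sex-linked, mitochondrial, ribosomal and haemoglobin genes. Genes at least as high in non-endothelial cells were also left out. The values of 1 gene that the rule takes are not reported here. Other genes named were chosen after their values were seen. The members and gene lists were chosen with earlier results of these data known. Gene positions came from GENCODE vM21 (mm10) by gene ID, and promoters from RefSeq by symbol or synonym.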

Additional observations from a re-analysis of the deposited data

Results flagged for a closer look

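For 4 arterial genes the Alk1 ECKO library was above control in the cycling cells before G2/M and below it in the non-cycling endothelial cells. The log2 ratios, before G2/M and non-cycling, were 2.23 and -0.997 for Cxcl12, 1.69 and -1.08 for Bmx, 1.35 and -0.70 for Stmn2, and 0.91 and -0.82 for Sema3g. With 1 library per genotype the difference between the classes was not tested. The control cells before G2/M held 11 UMIs of Cxcl12 in 10 cells and 13 of Bmx in 5.

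A further 49 barcodes of the Alk1 ECKO library met every condition of the class except the mitochondrial minimum of 1%, against 1 in control. Their median depth was 2415 UMIs. In the summed UMIs of these barcodes the histone list was at 1579 CPM and the licensing list at 1087 CPM. They entered none of the main values, but they are part of the alternative with no mitochondrial minimum.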

How the results depend on the processing

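No paired analysis was possible because each genotype had 1 library. With thresholds of 100 and 400 CPM for Mki67 plus Top2a the class held 21.8% and 12.1% of control and 20.2% and 7.63% of Alk1 ECKO endothelial cells. With 200 and 800 CPM for the late genes it held 8.76% and 23.3% and 9.46% and 22.1%. In Alk1 ECKO it held 11.95% with at least 2 UMIs of Mki67 and Top2a, 9.10% with no mitochondrial minimum and 18.2% after thinning.

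Counts of genes moved with the number measured, and also with the weighting of cells and with centring. After thinning, 136 genes (3.20%) were higher and 66 (1.55%) lower than in non-cycling cells, 6 (0.381%) and 28 (1.78%) than in G2/M cells, and 303 (10.5%) and 283 (9.78%) in Alk1 ECKO against control. With at least 20 CPM in 1 group the counts were 310 (5.29%) and 58 (0.990%) against non-cycling cells, 11 (0.192%) higher against G2/M cells, and 515 (7.92%) and 594 (9.14%) between genotypes. With at least 10 UMIs they were 413 (3.41%) lower against non-cycling cells, 198 (1.78%) and 188 (1.69%) against G2/M cells, and 1515 (12.6%) and 1738 (14.4%) between genotypes. With cells weighted equally, 261 (3.14%) and 227 (2.73%) genes differed from G2/M cells. Without centring, 488 were higher and 1723 lower between genotypes.

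Directions reversed with cells weighted equally for Spock2 against non-cycling cells in Alk1 ECKO (0.24), the arterial median there (0.62) and, between genotypes, Axin2 (1.33), Slc7a8 (0.41), Spock2 (0.32), Mfsd2a (0.037), Hist1h4i (-0.0031) and the barrier median (0.10). After thinning they reversed for the same arterial median (0.22), for Cenpw between genotypes (-0.34) and for the CDK inhibitor median (-0.054), which was also -0.037 without centring. The cause was not tested. Of the values of single genes under the alternatives, 2561 stayed within the spread set for them, 19 moved and 7 reversed, and of the list medians 375, 28 and 5. Of the named genes' ratios past 1.5-fold, 23 came inside it with cells weighted equally and 12 after thinning. The arterial median between genotypes ranged from 0.39 to 1.49, and the tip cell median from 0.77 to 1.31. Leaving out cells with markers of other types and cells under 5000 UMIs were added after the data had been seen. Depth limits the Alk1 ECKO cells more than the control cells, with fewer than 5000 UMIs in 54 of 175 against 2 of 55.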

Other observations

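Stress genes also differed between the genotypes in the cells before G2/M. Immediate early and heat shock genes were at least 1.5-fold higher in Alk1 ECKO in 8 of 16 and lower in 4, with a median of 0.61, against 0.73 in non-cycling and 0.94 in G2/M cells. The immediate early genes Fos and Jun, which dissociation of tissue can induce, were at 164 and 352 CPM in control cells and at 307 and 528 CPM in Alk1 ECKO cells. The inducible chaperone gene Hspa1a went the other way, at 34.2 and 1.29 CPM, a ratio of -4.55 (-5.72 to -3.58), and its copy Hspa1b was at 16.6 and 0.716 CPM.

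Flow-responsive genes were higher in 5 of 13 and lower in 1, with a median of 0.32. Klf2, which shear stress induces, was at 167 and 478 CPM, a ratio of 1.69 (1.56 to 1.83), against 0.94 in non-cycling and 1.75 in G2/M cells. Klf4, its relative, was at 86.0 and 129 CPM, a ratio of 0.76, or 0.32 after thinning. Tek, the TIE2 receptor gene, was lower, at 170 and 64.9 CPM, a ratio of -1.22 (-1.40 to -1.03), against -1.44 in non-cycling and -1.17 in G2/M cells. With cells weighted equally it was -0.16, inside 1.5-fold.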
